A study of Danio rerio with 18 samples.

Results

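RNA-Seq counts of zebrafish larvae were read for 45 genes of DNA replication and the cell cycle, a list that runs from the loading of the replicative helicase to the exit from mitosis. Members were matched to gene IDs by symbol alone, ignoring case. Where a symbol was absent it was also searched without its final a or b. This list and the other lists below were chosen with earlier results of these data known. The 45 symbols matched 47 of the 32520 Ensembl gene IDs in the files, because mcm6 and rrm2 each matched a pair of IDs. Of these, 46 passed the filter on low counts and were tested together with all other genes, 23223 in all. The remaining ID, the mcm6 copy ENSDARG00000033231, held 114 counts over all samples and was not tested.

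The samples were whole larvae of the Tg(fli1:EGFP) line, in which endothelial cells carry a green fluorescent protein, all collected at 120 hpf. The study's methods name medium with or without PTU, which blocks pigment formation. They state its addition at 24 hpf for drug treatments, and the RNA-Seq methods do not mention it. The 3 groups of 6 samples were untreated akr1a1a+/+ larvae, untreated akr1a1a-/- larvae, and akr1a1a+/+ larvae that received acrolein (ACR), a reactive aldehyde, from 24 hpf until collection. The akr1a1a-/- larvae came from a single mutant line made by CRISPR/Cas9 with a lesion in exon 2. The genotype effect is thus that of 1 allele. Whether akr1a1a+/+ and akr1a1a-/- clutches shared parents is not stated in the sources used here, so family and genotype cannot be told apart. Per a figure legend of the study each sample of the genotype comparison was a pool of larvae of 1 clutch. Whether ACR and akr1a1a+/+ samples of 1 number came from the same clutch is not stated in the sources used here.

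DNA replication starts when the origin recognition complex, Cdc6 and Cdt1 load the ring-shaped MCM helicase onto chromatin in G1 phase. Cyclin E and cyclin A with Cdk2 then fire the origins, Cdc45 and the GINS complex switch the helicase on, and polymerases held by the PCNA clamp copy the strands from nucleotides that ribonucleotide reductase and thymidylate synthase supply. Cyclin B with Cdk1, the Aurora and Polo kinases and the spindle checkpoint then carry the cell through mitosis. Most of these genes are transcribed in a cell-cycle-dependent manner, the S phase genes largely under E2F factors, so their mRNA is read as a marker of dividing cells. In a zebrafish larva of this age most cells have left the cycle, and dividing cells are found for example in the retinal margin, the proliferative zones of the brain, the intestine, the thymus and the blood-forming tissues. In whole larvae, a larger number of dividing cells and more of these mRNAs per dividing cell cannot be told apart.

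Total counts lay between 19878464 and 20463404 per sample, so 3 counts, the lowest level taken as detected, corresponded to 0.147 to 0.151 CPM (counts scaled to a common library total), a limit that covers counting error only. The targeted gene matched the labels. akr1a1a lay between 2.32 and 3.41 CPM in akr1a1a+/+ larvae, 2.76 and 3.75 CPM with ACR and 0.306 and 0.741 CPM in akr1a1a-/- larvae, and its log2 fold change in akr1a1a-/- larvae was -2.75 (adjusted p = 1.13e-09, quasi-likelihood test of edgeR, adjusted by the Benjamini-Hochberg method, as for every adjusted p below unless stated). A code in the run names, L2 or L3, was L2 for all akr1a1a+/+ samples and L3 for all akr1a1a-/- samples, so code and genotype cannot be told apart in that comparison. The samples with ACR carried L2 for replicates 1 to 3 and L3 for replicates 4 to 6.

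On the TPM scale, which corrects for transcript length, the list spanned a wide range in untreated akr1a1a+/+ larvae. The most abundant member was pcna, the sliding clamp, at 131 ± 16.9 TPM (SD, n = 6), followed by mcm7, a helicase subunit, at 117 ± 13.3 TPM and rrm2 (ENSDARG00000078069), the small subunit of ribonucleotide reductase, at 44.4 ± 6.92 TPM. At the other end were ccnb2, a B-type cyclin, at 1.95 ± 0.310 TPM, mcm10, which helps to activate the helicase, at 1.29 ± 0.325 TPM and the mcm6 copy ENSDARG00000033231 at 0.183 ± 0.0823 TPM. Of the 46 pairs of neighbours in the order of TPM levels, 2 did not overlap between their samples, namely mcm7 above rrm2 (ENSDARG00000078069) and mcm10 above the minor mcm6 copy. The place of mcm7 near the top rests on a short length, 0.286 of that of mcm3 when the ratio of counts to TPM is taken as length, while in CPM it lay beside mcm2 and mcm4.

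The first comparison asked how these mRNAs differed between akr1a1a-/- and akr1a1a+/+ larvae. All 46 tested genes had a higher fitted level in akr1a1a-/- than in akr1a1a+/+ larvae, with log2 fold changes from 0.02 to 1.15 and a median of 0.26, against a median of 0.00 over all genes tested, and on the TPM scale 44 of the 46 were positive. The test called 19 of the 46 genes (41.3%), all of them higher. Over all genes 16.2% were called in this comparison, 8.19% higher and 7.96% lower. The 19 genes held members of every step, from mcm2 to mcm5, orc3 and gins3 over pcna, rfc4, prim1 and rpa1, the nucleotide enzymes rrm1, rrm2 and tyms, and the cyclins and kinase ccna2, ccnb2, ccne2 and cdk1 to the mitotic genes bub1 and top2a. The rises were small, the largest being 2.21-fold in rrm2 (ENSDARG00000020711), 1.58-fold in gins3 and 1.51-fold in tyms and the smallest 1.16-fold in mcm2. This rrm2 ID, the copy with fewer counts, was not called on the TPM scale with limma, and its value is uncertain.

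**Figure D1:**
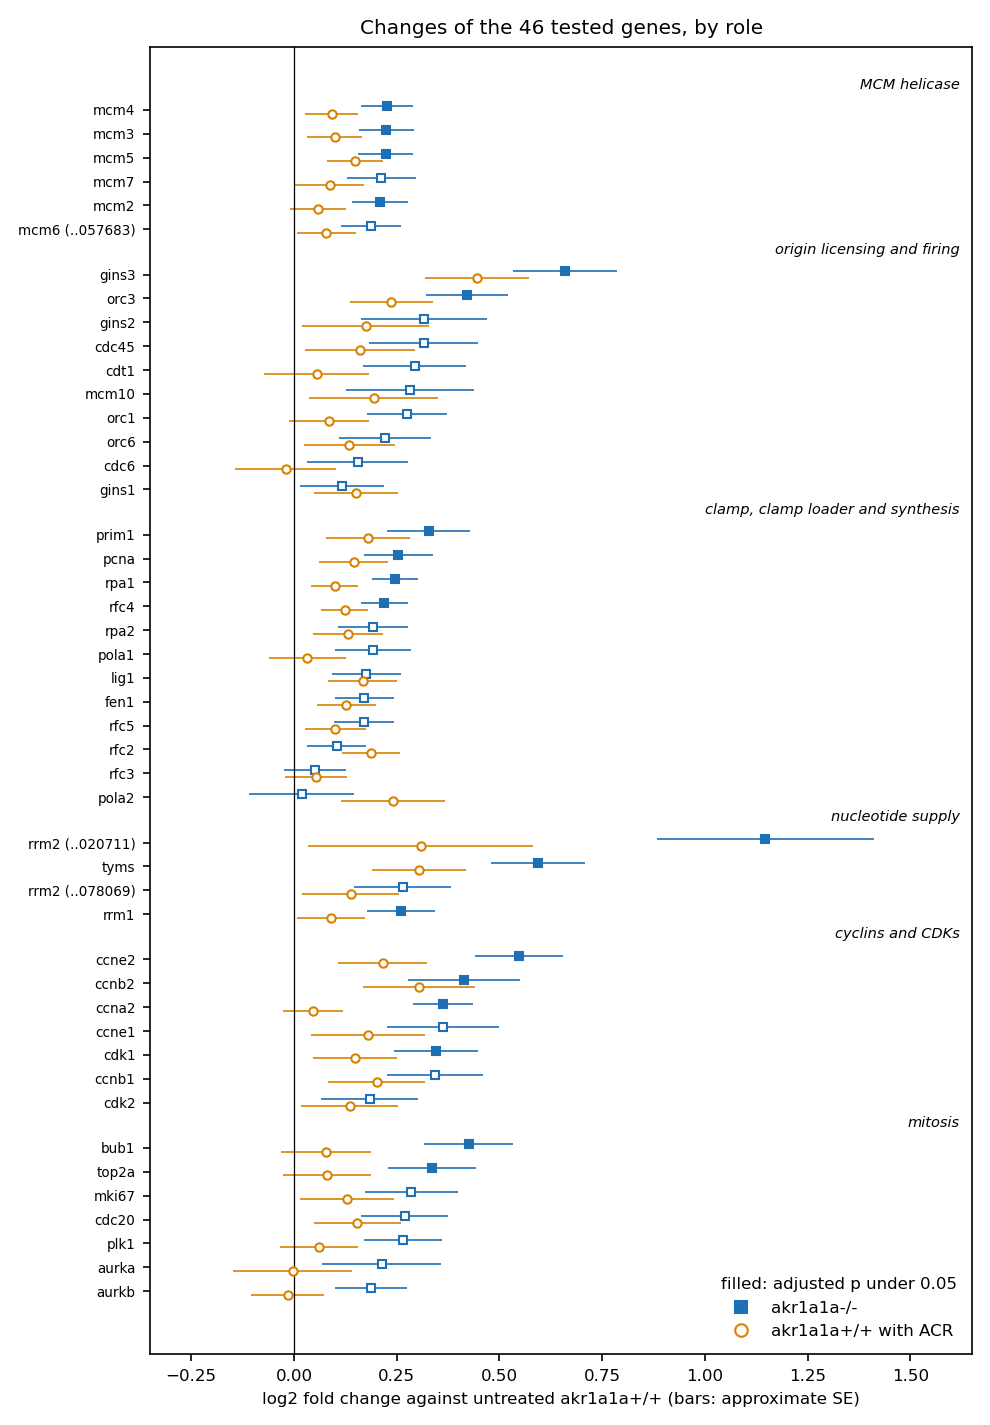
Log2 fold change against untreated akr1a1a+/+ larvae (x axis) for each of the 46 tested genes (y axis, in blocks by role), blue squares for akr1a1a-/- larvae and orange circles for akr1a1a+/+ larvae with ACR, bars showing the approximate SE and filled symbols an adjusted p under 0.05. All 46 squares lie right of 0 and 19 are filled, and none of the circles is filled, 43 of them right of 0.

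The count depended on single samples. Leaving out each of the 18 samples in turn gave between 9 genes, without akr1a1a+/+ replicate 2, and 29 genes, without akr1a1a+/+ replicate 3. It was 12 without akr1a1a+/+ replicate 1 or 4, and 11 without akr1a1a+/+ replicate 6 or without akr1a1a-/- replicate 4 or 5. Over all genes 6.62% to 8.44% were called higher in these fits. Every fit without a sample with ACR kept all 19 calls. Such a sample enters this comparison only through the filter, scaling and spread that the groups share. With the run-name code as a covariate 8 genes passed, all higher, against 3.26% of all genes higher, and 6 of them (rpa1, orc3, mcm5, prim1, tyms and cdk1) were among the 19. The code did not vary within either untreated group, so its term in every such fit came only from the samples with ACR. Passing or failing there thus rests on the difference between codes under ACR, and code and genotype remain confounded. Called in every one of the 18 fits without 1 sample were 9 genes, rpa1, orc3, gins3, rfc4, tyms, rrm2 (ENSDARG00000020711), ccna2, ccne2 and bub1, and 3 of these, rpa1, orc3 and tyms, were also called in each of the 9 other alternatives.

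The MCM helicase genes moved little and evenly. Of the 6 tested subunits, 4 (66.7%) passed the threshold in akr1a1a-/- larvae, all higher, against 8.19% of all genes higher. The log2 fold changes of the 6 spanned only 0.19 to 0.23. mcm4 ranged over 64.5 to 84.5 CPM (median 71.9) in akr1a1a+/+ larvae, 74.1 to 85.6 CPM (median 76.2) with ACR and 81.0 to 93.2 CPM (median 86.4) in akr1a1a-/- larvae. The highest akr1a1a+/+ samples reached into the lower part of the akr1a1a-/- range, and 3 of the 6 akr1a1a-/- samples lay above every akr1a1a+/+ sample. The log2 fold change of mcm4 was 0.23 ± 0.06 (SE, adjusted p = 0.0195), and those of mcm3, mcm5 and mcm2 were 0.22 ± 0.07 (adjusted p = 0.0261), 0.22 ± 0.07 (adjusted p = 0.0293) and 0.21 ± 0.07 (adjusted p = 0.044). mcm2 ranged over 62.2 to 83.4 CPM (median 75.0) in akr1a1a+/+ larvae, 70.8 to 81.4 CPM (median 77.0) with ACR and 77.4 to 93.1 CPM (median 84.7) in akr1a1a-/- larvae. mcm3 ranged over 38.6 to 50.5 CPM (median 44.0), 43.9 to 52.8 CPM (median 44.9) and 47.9 to 55.5 CPM (median 50.9) in the same order. mcm5 ranged over 39.7 to 52.6 CPM (median 45.8), 47.5 to 56.2 CPM (median 51.2) and 50.4 to 57.3 CPM (median 54.0). In each of these 3 genes 3 of the 6 akr1a1a-/- samples lay above every akr1a1a+/+ sample. The major mcm6 copy (ENSDARG00000057683) and mcm7 were at 0.19 and 0.21 and did not pass (adjusted p = 0.0832 and 0.0903). Reads of the mcm6 pair, near copies by name, could have been split between them.

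Among the 10 genes of origin licensing and firing, 2 (20%) passed the threshold, both higher, against 8.19% of all genes higher. All 10 had a positive log2 fold change. gins3 encodes a subunit of the GINS complex, which binds the helicase with Cdc45 and turns it on. It ranged over 1.68 to 2.12 CPM (median 1.86) in akr1a1a+/+ larvae, 2.12 to 3.51 CPM (median 2.41) with ACR and 2.66 to 3.39 CPM (median 2.96) in akr1a1a-/- larvae. Every akr1a1a-/- sample lay above every akr1a1a+/+ sample, while the samples with ACR ran from the top of the akr1a1a+/+ range to the top of the akr1a1a-/- range. Its log2 fold change was 0.66 ± 0.13 (SE, 1.58-fold, adjusted p = 0.00125), but it did not pass with the run-name code as a covariate (adjusted p = 0.144, and 0.000365 to 0.144 over the alternatives). orc3 encodes a subunit of the origin recognition complex. It ranged over 5.93 to 8.51 CPM (median 7.08) in akr1a1a+/+ larvae, 7.12 to 10.5 CPM (median 7.96) with ACR and 7.96 to 10.5 CPM (median 9.67) in akr1a1a-/- larvae. Replicate 1 was the only akr1a1a-/- sample within the akr1a1a+/+ range, and replicate 1 with ACR was as high as the highest akr1a1a-/- sample. For orc3 the log2 fold change was 0.42 ± 0.10 (SE, adjusted p = 0.00711, 0.00184 to 0.0314 over the alternatives). The other GINS genes in the list, gins2 and gins1, were at 0.32 and 0.12 (adjusted p = 0.173 and 0.476). cdc45 was at 0.32, the MCM loaders cdt1 and cdc6 at 0.29 and 0.16, mcm10 at 0.28, and the origin complex genes orc1 and orc6 at 0.27 and 0.22, none of them past the threshold (adjusted p from 0.059 to 0.425).

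Of the 12 genes of the clamp, its loader and strand synthesis, 4 (33.3%) passed the threshold, all higher, against 8.19% of all genes higher. All 12 had a positive log2 fold change. rpa1, the large subunit of the protein that coats single-stranded DNA, ranged over 45.3 to 53.9 CPM (median 46.9) in akr1a1a+/+ larvae, 45.8 to 55.7 CPM (median 52.3) with ACR and 52.5 to 60.8 CPM (median 58.3) in akr1a1a-/- larvae. Only replicate 1 of the akr1a1a-/- samples fell within the akr1a1a+/+ range. Its log2 fold change was 0.25 ± 0.06 (SE, adjusted p = 0.00537, 0.000636 to 0.0305 over the alternatives). rfc4, a subunit of the clamp loader, ranged over 11.8 to 14.3 CPM (median 13.4) in akr1a1a+/+ larvae, 12.7 to 15.8 CPM (median 14.4) with ACR and 14.6 to 15.8 CPM (median 15.3) in akr1a1a-/- larvae. In CPM the akr1a1a-/- samples lay close together and above every akr1a1a+/+ sample. On the TPM scale they overlapped, with 35.8 to 44.3 TPM in akr1a1a-/- and 35.1 to 41.4 TPM in akr1a1a+/+ larvae. rfc4 was not called on that scale with limma. Its ratio of counts to TPM, taken as a length relative to mcm3, ran from 0.147 to 0.177 between samples. The log2 fold change of rfc4 was 0.22 ± 0.06 (SE, adjusted p = 0.0124), and with the run-name code as a covariate the adjusted p was 0.437, the highest of its alternatives, which began at 0.00772.

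pcna, the clamp itself and the most used marker of S phase, ranged over 107 to 153 CPM (median 120.4) in akr1a1a+/+ larvae, 128 to 159 CPM (median 133) with ACR and 131 to 172 CPM (median 146) in akr1a1a-/- larvae. The groups overlapped widely, with akr1a1a+/+ replicate 3 above most akr1a1a-/- samples and 2 akr1a1a-/- samples above it. Its log2 fold change was 0.25 ± 0.08 (SE, adjusted p = 0.0435), close to the threshold, and it was called in 9 of the 18 fits without 1 sample. These held every fit without a sample with ACR. Among fits without a compared sample, pcna stayed called only without akr1a1a-/- replicate 1 or akr1a1a+/+ replicate 3 or 5. prim1, the primase that lays down the first nucleotides of each strand, ranged over 7.21 to 9.76 CPM (median 7.69) in akr1a1a+/+ larvae, 7.54 to 11.3 CPM (median 8.63) with ACR and 8.85 to 12.3 CPM (median 9.80) in akr1a1a-/- larvae. akr1a1a+/+ replicate 3 stood above the other akr1a1a+/+ samples and reached into the akr1a1a-/- range. In akr1a1a-/- larvae the log2 fold change of prim1 was 0.33 ± 0.10 (SE, adjusted p = 0.0321). The other clamp loader genes rfc2, rfc3 and rfc5 were at 0.10, 0.05 and 0.17, the polymerase alpha genes pola1 and pola2 at 0.19 and 0.02, the flap nuclease fen1 and the ligase lig1 at 0.17 and 0.18, and rpa2 at 0.19. None of these 8 passed (adjusted p from 0.115 to 0.943).

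The nucleotide supply genes held the largest rise of the list. Of 4 tested, 3 (75%) passed the threshold, all higher, against 8.19% of all genes higher. The median log2 fold change over the 4 was 0.43. rrm2 (ENSDARG00000020711), a small subunit of ribonucleotide reductase, ranged over 1.47 to 6.40 CPM (median 3.08) in akr1a1a+/+ larvae, 3.82 to 4.89 CPM (median 4.17) with ACR and 4.94 to 11.6 CPM (median 7.26) in akr1a1a-/- larvae. Its values varied widely within both untreated groups, and akr1a1a+/+ replicate 3 exceeded 2 of the akr1a1a-/- samples, whereas every akr1a1a-/- sample lay above every sample with ACR. Its log2 fold change was 1.15 ± 0.26 (SE, 2.21-fold, adjusted p = 0.00542), and with the run-name code as a covariate the adjusted p was 0.166 (0.000446 to 0.166 over the alternatives). On the TPM scale it ranged over 6.92 to 23.8 TPM (median 10.5) in akr1a1a+/+ and 13.3 to 22.1 TPM (median 17.3) in akr1a1a-/- larvae. It was not called on that scale with limma. The other copy, rrm2 (ENSDARG00000078069), carried most of the counts. It ranged over 44.0 to 67.4 CPM (median 51.4) in akr1a1a+/+ larvae, 48.9 to 69.7 CPM (median 58.2) with ACR and 55.8 to 80.7 CPM (median 60.0) in akr1a1a-/- larvae, with wide overlap, and did not pass (log2 fold change 0.26 ± 0.12, adjusted p = 0.139). Reads of this pair could have been split between the copies, and the ratio of counts to TPM of the minor copy, taken as a length relative to mcm3, moved from 0.0954 to 0.335 between samples, so its value is uncertain.

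tyms, thymidylate synthase, which makes the thymidine nucleotide needed only for DNA, ranged over 7.32 to 10.3 CPM (median 8.44) in akr1a1a+/+ larvae, 8.40 to 12.5 CPM (median 10.6) with ACR and 11.02 to 16.3 CPM (median 12.1) in akr1a1a-/- larvae. Every akr1a1a-/- sample lay above every akr1a1a+/+ sample, with replicates 4 and 5 the highest. The log2 fold change of tyms was 0.59 ± 0.11 (SE, 1.51-fold, adjusted p = 0.00131), and it passed in every alternative, with adjusted p between 3.07e-05 and 0.00708. rrm1, the large subunit of ribonucleotide reductase, ranged over 50.02 to 66.9 CPM (median 56.9) in akr1a1a+/+ larvae, 54.4 to 68.4 CPM (median 61.4) with ACR and 59.5 to 80.9 CPM (median 67.7) in akr1a1a-/- larvae. The lower akr1a1a-/- samples lay among the akr1a1a+/+ samples. For rrm1 the log2 fold change was 0.26 ± 0.08 (SE, adjusted p = 0.0363).

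**Figure D2:**
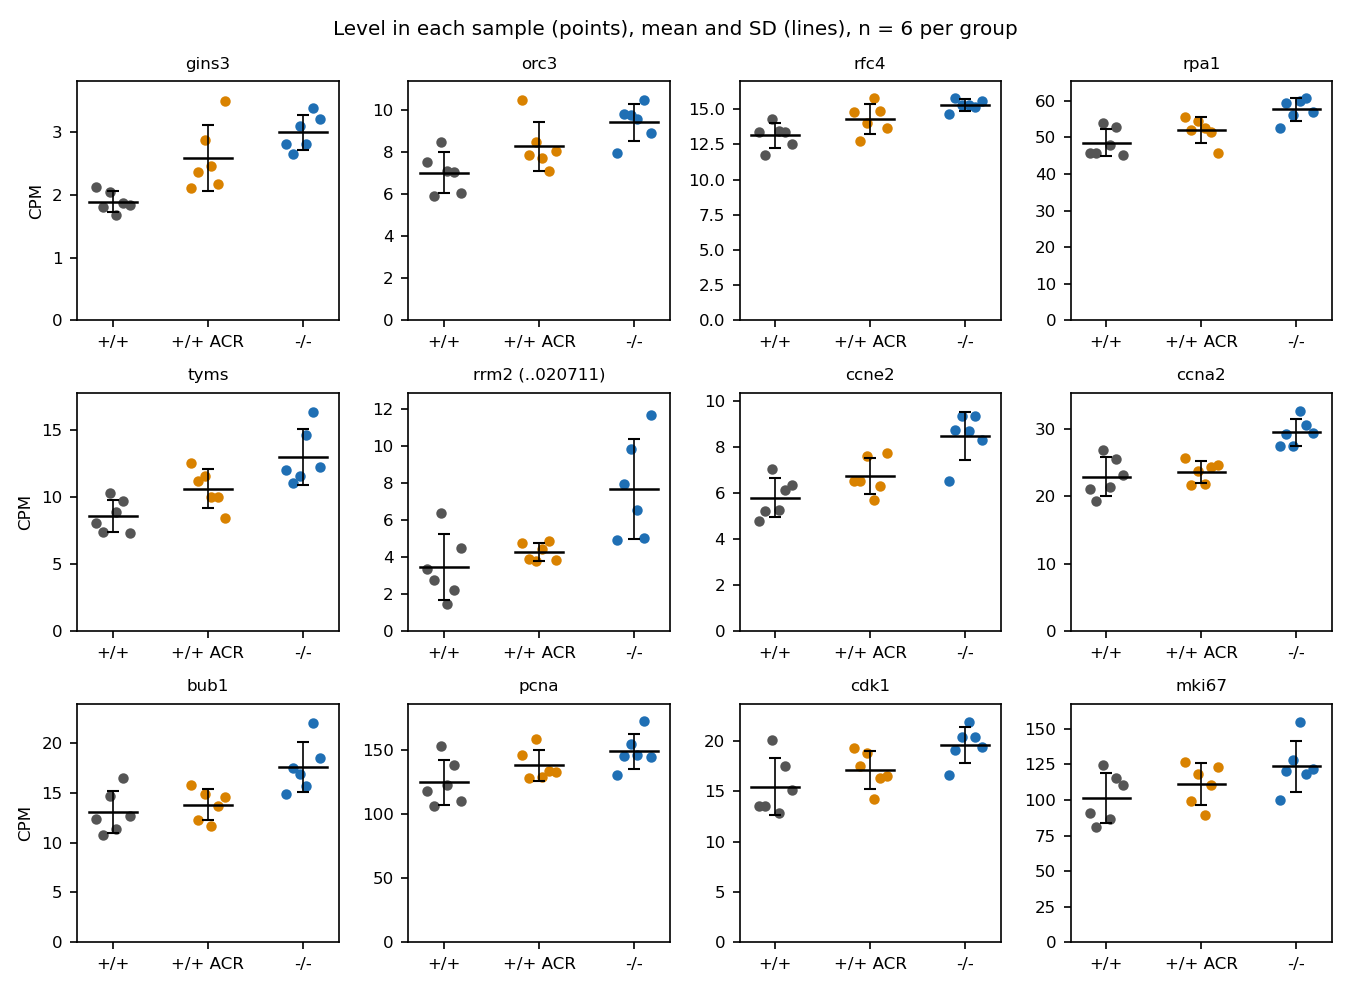
Normalised level (CPM, y axis, starting at 0) of 12 genes in each sample (points) for akr1a1a+/+ larvae, akr1a1a+/+ larvae with ACR and akr1a1a-/- larvae (n = 6 each), with the mean and SD as black lines. In gins3, rfc4, tyms and ccna2 every akr1a1a-/- point lies above every akr1a1a+/+ point, and in pcna, cdk1 and mki67 the groups overlap.

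Of 7 genes of cyclins and their kinases, 4 (57.1%) passed the threshold, all higher, against 8.19% of all genes higher. All 7 had a positive log2 fold change. ccna2, cyclin A of S phase and early mitosis, ranged over 19.4 to 26.9 CPM (median 22.3) in akr1a1a+/+ larvae, 21.7 to 25.7 CPM (median 24.0) with ACR and 27.4 to 32.7 CPM (median 29.3) in akr1a1a-/- larvae. Every akr1a1a-/- sample lay above every sample of both other groups, which overlapped each other. Its log2 fold change was 0.36 ± 0.07 (SE, 1.29-fold, adjusted p = 0.00202), and the only alternative in which it did not pass was that with the run-name code as a covariate (adjusted p = 0.0870, and 0.000105 to 0.0870 over the alternatives). ccne2, a cyclin E that drives entry into S phase, ranged over 4.79 to 7.05 CPM (median 5.73) in akr1a1a+/+ larvae, 5.72 to 7.75 CPM (median 6.56) with ACR and 6.52 to 9.37 CPM (median 8.74) in akr1a1a-/- larvae. Of the akr1a1a-/- samples 5 lay above every akr1a1a+/+ sample, and replicate 1 lay well below them. In ccne2 the log2 fold change was 0.55 ± 0.11 (SE, 1.46-fold, adjusted p = 0.00155). Its partner gene ccne1 was at 0.36 and did not pass (adjusted p = 0.0787).

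cdk1, the kinase of mitotic entry, ranged over 12.9 to 20.1 CPM (median 14.4) in akr1a1a+/+ larvae, 14.2 to 19.3 CPM (median 17.0) with ACR and 16.6 to 21.9 CPM (median 19.9) in akr1a1a-/- larvae. The highest akr1a1a+/+ sample, replicate 3, lay above the median of the akr1a1a-/- samples. For cdk1 the log2 fold change was 0.34 ± 0.10 (SE, adjusted p = 0.0253). ccnb2, a B-type cyclin that partners it, ranged over 1.73 to 2.80 CPM (median 1.83) in akr1a1a+/+ larvae, 2.07 to 2.71 CPM (median 2.51) with ACR and 2.17 to 3.09 CPM (median 2.61) in akr1a1a-/- larvae. Apart from replicate 3, the akr1a1a+/+ samples lay below every sample of both other groups. The log2 fold change of ccnb2 was 0.41 ± 0.14 (SE, adjusted p = 0.0431), called in 9 of the 18 fits without 1 sample. These held every fit without a sample with ACR. Among fits without a compared sample, ccnb2 stayed called only without akr1a1a-/- replicate 3 or 4 or akr1a1a+/+ replicate 3. ccnb1, the other B-type cyclin, ranged over 9.65 to 14.8 CPM (median 11.9) in akr1a1a+/+ larvae, 11.1 to 17.6 CPM (median 12.4) with ACR and 13.5 to 16.4 CPM (median 15.0) in akr1a1a-/- larvae, overlapped in all groups and stayed just outside the threshold (log2 fold change 0.34 ± 0.12, adjusted p = 0.0503). ccnb1 was called with DESeq2's size factors, its Wald test, a fit of the 2 groups alone, the replicate block and the code as a covariate. With the other filters and with limma on TPM values it was not called. The S phase kinase gene cdk2 was at 0.18 (adjusted p = 0.314).

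Among the 7 mitotic genes, 2 (28.6%) passed the threshold, both higher, against 8.19% of all genes higher. All 7 had a positive log2 fold change. bub1, a kinase of the spindle checkpoint, ranged over 10.8 to 16.5 CPM (median 12.5) in akr1a1a+/+ larvae, 11.7 to 15.7 CPM (median 14.1) with ACR and 14.9 to 22.0 CPM (median 17.1) in akr1a1a-/- larvae. Of the akr1a1a-/- samples 4 lay above every akr1a1a+/+ sample and replicate 5 was the highest. Its log2 fold change was 0.43 ± 0.11 (SE, 1.34-fold, adjusted p = 0.0105, 0.00194 to 0.0926 over the alternatives). top2a, the topoisomerase that untangles replicated chromosomes, ranged over 39.6 to 64.9 CPM (median 47.8) in akr1a1a+/+ larvae, 42.9 to 60.6 CPM (median 52.2) with ACR and 52.4 to 71.3 CPM (median 62.8) in akr1a1a-/- larvae. Replicate 3 of the akr1a1a+/+ larvae exceeded all but 1 of the akr1a1a-/- samples. For top2a the log2 fold change was 0.34 ± 0.11 (SE, adjusted p = 0.0385).

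mki67, the proliferation marker Ki-67 that coats mitotic chromosomes, ranged over 80.9 to 124 CPM (median 101) in akr1a1a+/+ larvae, 89.2 to 127 CPM (median 114) with ACR and 100.02 to 155 CPM (median 121) in akr1a1a-/- larvae. The 3 groups overlapped, and it did not pass (log2 fold change 0.29 ± 0.11, adjusted p = 0.0946). plk1, the Polo kinase of mitotic entry and exit, ranged over 15.2 to 21.7 CPM (median 18.5) in akr1a1a+/+ larvae, 17.3 to 23.4 CPM (median 18.8) with ACR and 19.0 to 25.7 CPM (median 22.4) in akr1a1a-/- larvae. Of its akr1a1a-/- samples 4 lay above every akr1a1a+/+ sample, and it did not pass (log2 fold change 0.27 ± 0.09, adjusted p = 0.0622). The Aurora kinase genes aurka and aurkb were at 0.21 and 0.19 and cdc20, an activator of the anaphase-promoting complex, at 0.27 (adjusted p = 0.34, 0.16 and 0.0911). Over the whole list, 4 genes (gins3, rfc4, tyms and ccna2) had every akr1a1a-/- sample above every akr1a1a+/+ sample in CPM. Over all genes 3.80% did not overlap in this direction and 3.65% in the other.

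The second comparison asked whether ACR in akr1a1a+/+ larvae gave a like change. This comparison uses the same akr1a1a+/+ samples as the first, so the values of both cannot be taken as independent. No gene of the list passed the threshold after ACR in edgeR's test, in DESeq2's Wald test or in limma on TPM values, and 7 of 46 had an unadjusted p under 0.05, against 5.42% of all genes. Over all genes 0.0258% were called in this comparison, all of them higher, and 0.108% were called higher with the replicate number as a block, again with no gene of the list. Of the 46 genes 43 had a positive log2 fold change, with a range from -0.02 to 0.45 and a median of 0.13, against a median of 0.00 over all genes tested. The 7 genes were gins3 at 0.45 ± 0.13 (SE, unadjusted p = 0.00228, adjusted p = 0.815, edgeR), tyms at 0.30, ccnb2 at 0.30, orc3 at 0.24, rfc2 at 0.19, mcm5 at 0.15 and rfc4 at 0.12 on the log2 scale, and were named after their values were seen. In gins3, 5 of the 6 samples with ACR lay above every akr1a1a+/+ sample. In ccna2, top2a and bub1 the log2 fold changes with ACR were 0.05 ± 0.07, 0.08 ± 0.11 and 0.08 ± 0.11 (SE). No member had the samples with ACR wholly above those without, and over all genes 0.181% did.

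The ACR values split by run-name code. With replicates 1 to 3 (code L2, as in all akr1a1a+/+ larvae) all 46 genes had a higher mean than in akr1a1a+/+ larvae and the median log2 fold change was 0.18. With replicates 4 to 6 (code L3) 37 genes had a positive log2 fold change and the median was 0.05. The mean of the L2 samples exceeded that of the L3 samples in 38 of 46 genes. In tyms the L2 samples with ACR had a mean of 11.8 CPM and the L3 samples 9.44 CPM, and in ccnb1 they had 15.8 and 11.6 CPM. The part of the code in these values was not tested.

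The third comparison set akr1a1a-/- larvae against akr1a1a+/+ larvae with ACR. Of the 46 genes 4 rose in akr1a1a-/- larvae and none fell, 8.7% of the list, while over all genes 13.8% were called, 6.46% higher and 7.29% lower, so the share lay near the background. The 4 genes were rrm2 (ENSDARG00000020711) at 0.84 ± 0.26 (SE, adjusted p = 0.0348), bub1 at 0.35 ± 0.11 (adjusted p = 0.0365), ccne2 at 0.33 ± 0.11 (adjusted p = 0.0421) and ccna2 at 0.32 ± 0.07 (adjusted p = 0.00589). ccna2 passed in every alternative, with adjusted p from 0.000909 to 0.04995. The other 3 did not pass with the code as a covariate, with limma on either TPM scale, or with the ACR samples of 1 code only. Of the 18 fits without 1 sample, rrm2 (ENSDARG00000020711) was called in 11, bub1 in 12 and ccne2 in 9. Fits without an akr1a1a+/+ sample, which is not in this comparison, kept all 4 calls. Over all genes 5.36% to 6.51% were called higher in the 18 fits. The log2 fold changes of the list ran from -0.22, in pola2, to 0.84, with a median of 0.14 and 42 of 46 positive, a number that was 33 on the TPM scale. In ccna2 and rrm2 (ENSDARG00000020711) every akr1a1a-/- sample lay above every sample with ACR, against 2.80% of all genes in this direction and 3.33% in the other. The count of 4 became 1 without akr1a1a-/- replicate 2 or 6 or without replicate 2 or 4 of the samples with ACR, and 2 without akr1a1a-/- replicate 3 or 5 or without replicate 5 of the samples with ACR.

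The akr1a1a-/- samples and replicates 4 to 6 with ACR shared code L3, so that akr1a1a-/- samples could be set against akr1a1a+/+ samples of the same code only where the latter had received ACR. There, 43 of 46 genes had a higher mean in akr1a1a-/- larvae, and in 14 every akr1a1a-/- sample lay above every L3 sample with ACR, against 6.73% of all genes in the same split of 6 against 3 samples. Called in that fit were 3 of the 46 genes, all higher, against 4.01% of all genes called higher. ccna2 had a mean of 29.5 CPM in akr1a1a-/- larvae and 23.6 CPM in the L3 samples with ACR, tyms 13.0 and 9.44 CPM, and ccnb1 15.1 and 11.6 CPM.

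As a summary of each sample, the mean over the 46 genes of the log2 CPM minus the mean of that gene over the 18 samples was taken. It was -0.14 ± 0.16 (SD, n = 6) in akr1a1a+/+ larvae, -0.00 ± 0.10 with ACR and 0.15 ± 0.09 in akr1a1a-/- larvae. In akr1a1a+/+ larvae the values ran from -0.33 (replicate 2) to 0.12 (replicate 3), and in akr1a1a-/- larvae from 0.01 (replicate 1) to 0.28 (replicate 5). akr1a1a+/+ replicate 3 thus stood with the akr1a1a-/- samples, with 39 of 46 genes above their own mean, while the other akr1a1a+/+ samples had between 0 and 22. Replicates 1 and 3 with ACR had 41 and 38 genes above their mean and the other 4 between 10 and 12. All genes of the list together took up 0.115% ± 0.0125 of the counts in akr1a1a+/+ larvae, 0.126% ± 0.00951 with ACR and 0.135% ± 0.00865 in akr1a1a-/- larvae. No test was run on this summary.

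**Figure D3:**
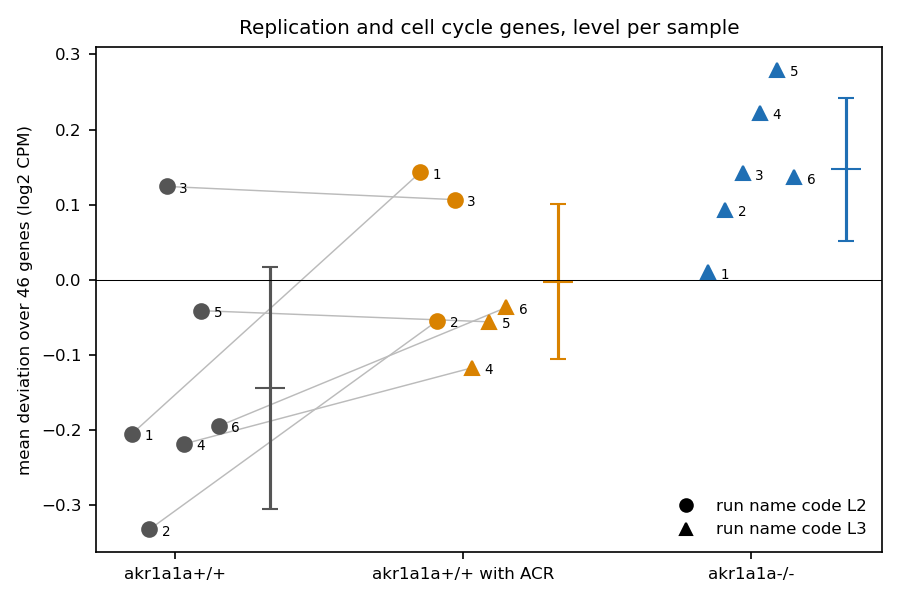
Mean deviation of the 46 genes from their mean over all samples (log2 CPM, y axis) for each sample, by group (x axis), with the replicate number beside each point, the group mean and SD as lines, circles for run-name code L2, triangles for L3 and grey lines joining equal numbers of akr1a1a+/+ larvae without and with ACR. akr1a1a+/+ samples lie between -0.33 and 0.12, samples with ACR between -0.12 and 0.14 and akr1a1a-/- samples between 0.01 and 0.28.

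**Figure D4:**
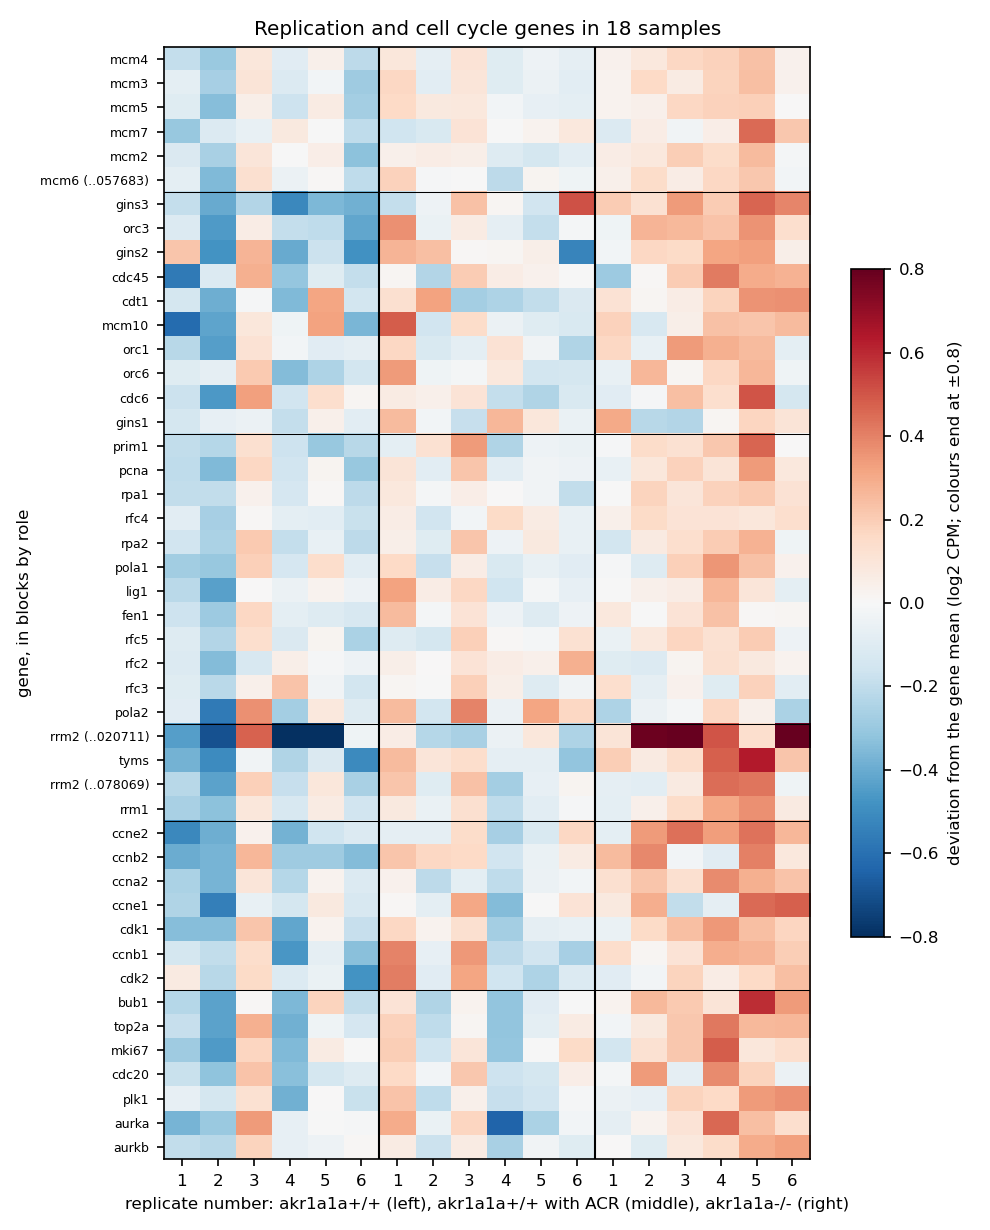
Deviation of log2 CPM from the mean of the gene (colour, red higher and blue lower) for the 46 genes (rows, in blocks by role) in the 18 samples (columns, by group and replicate number). akr1a1a+/+ replicate 2 is below the mean in all 46 genes, akr1a1a-/- replicate 5 is above it in all 46, and akr1a1a+/+ replicate 3 is above it in 39.

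The genes moved together between samples of 1 group. After the group means were removed, the mean of the 1035 pairwise Pearson correlations over the 18 samples was 0.46, against 0.00 over pairs of all genes tested, and 971 pairs were positive. These are descriptions, as all genes of a sample share 1 library. The closest pairs were rrm1 with rrm2 (ENSDARG00000078069), the subunits of 1 enzyme, at r = 0.96, mcm4 with pcna at 0.95 and mki67 with top2a at 0.92. By role, the mean correlation was highest in the mitotic genes, at 0.67, and the MCM helicase, at 0.64, and lowest in origin licensing and firing, at 0.27. mcm4 followed the mean of all other members most closely (r = 0.92), then rrm1 and pcna (both 0.91). The genes that followed it least were gins1 (r = -0.00), gins3 (0.17), rrm2 (ENSDARG00000020711) (0.20), rfc3 (0.29) and mcm7 (0.30). gins3 and rrm2 (ENSDARG00000020711) had the largest fold changes of the list in akr1a1a-/- larvae. Both were among those least tied to the variation of the others between samples. Their counts were low, 33 to 71 and 29 to 228 per sample, against 1316 to 1813 in mcm4. mcm7, also weakly tied, had 1273 to 2065. The part of counting error and of reads split between the rrm2 copies in these correlations was not tested.

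Other genes of replication and division, listed by symbol apart from the 45, were read from the same fits. Capitals in a symbol are the spelling of the name table. Of 38 other replication factors, 11 (28.9%) rose in akr1a1a-/- larvae, against 8.19% of all genes, and none fell, with a median log2 fold change of 0.23. MCM9, an MCM relative that acts in DNA repair, was at 1.01 (adjusted p = 8.78e-05), from 3.66 ± 0.785 CPM (SD, n = 6) in akr1a1a+/+ to 7.37 ± 1.23 CPM in akr1a1a-/- larvae. The origin complex genes orc2 and ORC4 were at 0.66 (adjusted p = 0.0251) and 0.38 (adjusted p = 0.0178). POLE2, a subunit of the leading-strand polymerase, was at 0.46, pclaf, which encodes a PCNA-binding factor, at 0.41 and TK1, the thymidine kinase, at 0.32 (adjusted p from 0.0319 to 0.0465). Of 53 other mitotic genes 13 (24.5%) rose and none fell, with a median of 0.23, among them MYBL2, a transcription factor of late cell cycle genes, at 0.44 (adjusted p = 0.017), BIRC5, survivin, at 0.44, cdca5, a cohesin regulator, at 0.39 and the checkpoint gene MAD2L1 at 0.39. With the run-name code as a covariate 5 genes passed in each of the 2 lists, all higher, against 3.26% of all genes higher. These counts moved with single samples as that of the 46 genes did. The 11 and 13 genes became 17 and 25 without akr1a1a+/+ replicate 3, where 8.22% of all genes were higher. They became 5 and 5 without akr1a1a+/+ replicate 1 or 2 (7.05% and 6.87% of all genes). They numbered 6 to 8 without akr1a1a+/+ replicate 4 or 6 or akr1a1a-/- replicate 3, 4 or 5 (6.62% to 7.31% of all genes).

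Regulators that act before S phase and genes of the DNA damage response were read in the same way. Of 36 genes of G1 entry and the E2F-Rb pathway 3 (8.33%) rose and 2 fell in akr1a1a-/- larvae, near the 8.19% higher and 7.96% lower of all genes, and the median log2 fold change was 0.04. SKP2, which targets Cdk inhibitors for degradation, was at 0.58 (adjusted p = 0.00875), and LIN9 and E2F4, of the complexes that regulate cell cycle promoters, were at 0.26 and 0.15 (adjusted p = 0.0149 and 0.0248). The kinase gene CDK4 and 1 of a pair of CCND2 IDs (ENSDARG00000070408), a D-type cyclin that partners Cdk4, were lower, at -0.54 (adjusted p = 0.00226) and -0.31 (adjusted p = 0.0442) on the log2 scale, while the other CCND2 ID was at -0.11 (adjusted p = 0.476). CDK4 went from 22.5 ± 3.08 CPM in akr1a1a+/+ to 15.5 ± 0.633 CPM in akr1a1a-/- larvae (SD, n = 6), with no overlap between these groups. Of 43 genes of the DNA damage response and p53 targets 7 (16.3%) rose and 3 fell, with a median of 0.08. FANCL, a ligase of the Fanconi repair pathway, was at 1.15 (adjusted p = 0.000365), the histone gene h2ax at 0.42 (adjusted p = 0.0417) and mdm2, the p53 antagonist and p53 target, at 0.36 (adjusted p = 0.00105). The p53 target bbc3, a cell death gene, was at -0.35 (adjusted p = 0.00349) and the break repair gene XRCC5 at -0.48 (adjusted p = 0.000188), both lower. With the code as a covariate 1 gene rose and none fell in each of these 2 lists, against 3.26% of all genes higher and 3.19% lower. On the TPM scale with limma, 0 of the G1 genes rose and 3 fell, and 4 of the damage response genes rose and 7 fell. Over all genes 5.21% were higher and 10.7% lower with a pseudocount of 1, and 5.03% and 10.8% with 0.1. Without 1 sample 2 to 6 of the G1 genes rose and 1 to 2 fell, most rising without akr1a1a+/+ replicate 3. Of the damage response genes 5 to 7 rose and 2 to 6 fell, most falling without akr1a1a+/+ replicate 6. Over all genes 6.62% to 8.44% were higher and 6.51% to 8.43% lower in these fits. After ACR no gene of the 4 lists passed in edgeR's, DESeq2's or limma's test, and the number with an unadjusted p under 0.05 was 6 of 38, 2 of 53, 1 of 36 and 9 of 43, against 5.42% of all genes.

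**Figure D5:**
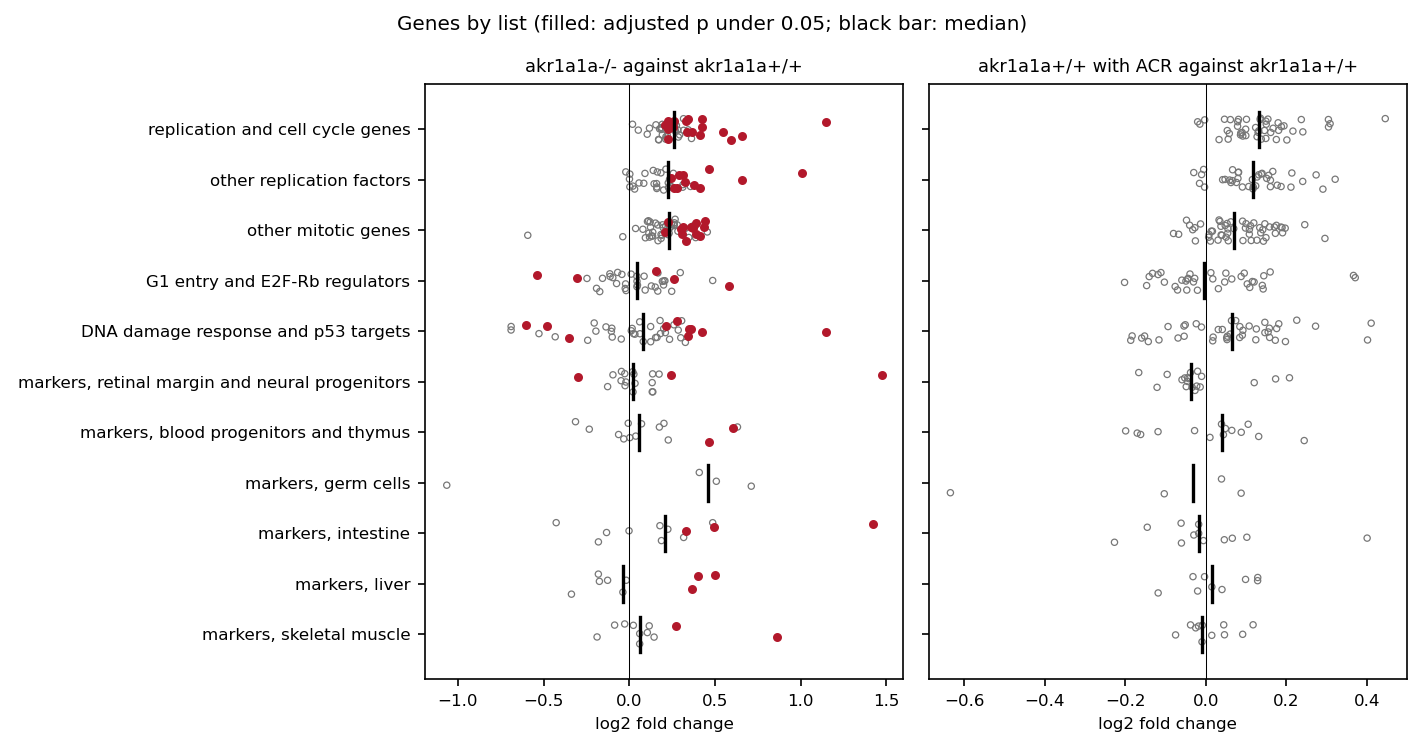
Log2 fold change against untreated akr1a1a+/+ larvae (x axis, with its own scale in each panel) of each tested gene (points) in the 46-gene list and the 10 other lists (y axis), left for akr1a1a-/- larvae and right for akr1a1a+/+ larvae with ACR. Filled red points have an adjusted p under 0.05 and black bars are medians, which on the left are 0.26, 0.23 and 0.23 for the upper 3 lists and 0.04 and 0.08 for the next 2.

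Markers of tissues that divide in the larva, or that make up much of its RNA, were read beside the list, with the same 8.19% of all genes higher and 7.96% lower as background in akr1a1a-/- larvae. Of the markers of retinal margin and neural progenitors 2 of 19 rose and 1 fell, 11 had a positive log2 fold change and the median was 0.02. Their summed level ran from 722 to 772 CPM in akr1a1a+/+ larvae, 701 to 796 CPM with ACR and 733 to 853 CPM in akr1a1a-/- larvae. Of 14 markers of blood progenitors and thymus 2 rose, LMO2 at 0.60 (adjusted p = 0.00175) and IKZF1 at 0.46 (adjusted p = 0.0319). Of the 14, 9 had a positive log2 fold change, with a median of 0.05 and a lowest of -0.31. Their sums were 82.2 to 91.4, 82.5 to 96.9 and 84.0 to 109 CPM in the same order. Of 4 tested germ cell markers none passed in edgeR's test, 1 had an unadjusted p under 0.05, buc was at or under 3 counts in every sample, and the sum of the 7 found was 3.41 to 7.87, 2.91 to 8.25 and 4.42 to 9.32 CPM. Of 12 intestine markers 3 rose, with sums of 1281 to 2211, 1325 to 2084 and 1937 to 2122 CPM. Of the 12, 8 had a positive log2 fold change, with a median of 0.21. Of 9 liver markers 3 rose, with sums of 4379 to 6019, 4153 to 6107 and 5933 to 7711 CPM. These 3 were the only liver markers with a positive log2 fold change, and the median of the 9 was -0.04. Of 11 skeletal muscle markers 2 rose, with sums of 33364 to 37213, 33943 to 37798 and 34509 to 41595 CPM. Of the 11, 8 had a positive log2 fold change, with a median of 0.06. After ACR no marker of these lists passed in the test of edgeR, DESeq2 or limma, and 1 retinal and 1 intestine marker had an unadjusted p under 0.05. The part of these tissues in the levels of the replication and cell cycle genes was not tested.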

How the data were processed

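RNA-Seq libraries of 18 samples of whole larvae were sequenced, with groups and replicate numbers as the labels give them. Per the submitters' processing notes, Trim Galore 0.6.4, kallisto 0.4.6 and the build GRCz11 were used, and the annotation release is not given in the sources used here. The deposited values were estimated counts, which the authors did not normalize, and TPM values, which they scaled within each sample. Symbols were found for 29201 of the 32520 Ensembl gene IDs in a table that pairs IDs with symbols.

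The estimated counts were rounded to whole numbers and tested with edgeR 4.0.16 in R 4.3.3 (glmQLFit and glmQLFTest, TMM, filterByExpr) in a single fit of the 3 group means with 15 residual degrees of freedom, since the study's methods name no design for these tests. P values were adjusted over the 23223 tested genes by the Benjamini-Hochberg method, and 0.05 was the threshold. CPM values use TMM-scaled totals, log2 CPM a prior count of 2, and the SE of a log2 fold change was taken from F and is approximate. The script was tested on simulated data. The members, lists and tests were chosen with earlier results of these data known.

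Named in full were members past the threshold in any comparison, 1 or 2 fixed genes per role and the 3 largest changes per comparison, 23 in all, and per other list up to 6 genes past the threshold, of which a selection is given here. Alternatives were DESeq2 1.42.0 (size factors, Wald test), limma 3.58.1 on log2(TPM + 1) and log2(TPM + 0.1), other filters, a fit without the group not compared, a replicate block, the run-name code as a covariate, the ACR samples of 1 code, and each sample left out. The fits without 1 sample and the block fit of akr1a1a+/+ samples with and without ACR alone were added after the data were seen. Promoter sequences were not used here. Coordinates served only to place members by chromosome and to count the genes between akr1a1a and members on its chromosome.

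Equal numbers paired akr1a1a+/+ samples without and with ACR, since the correlation of their deviations from the group means over all genes was 0.25 to 0.60, above 0.1 in all 6 pairs. Over the 46 genes of the list alone it was -0.16 to 0.34 in these pairs, and 0 of the 6 samples matched their own number best. For akr1a1a+/+ with akr1a1a-/- samples it was 0.04 to 0.13 over all genes and for akr1a1a-/- with ACR samples -0.04 to 0.10. Over the 46 genes it was -0.01 to 0.47 and -0.30 to 0.15 in the same order. There 3 and 0 of the 6 samples matched their own number best. All 45 pairs of samples within a group differed by more than sampling noise, with a chi-square per gene of 5.26 to 26.4.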

Additional observations from a re-analysis of the deposited data

Results flagged for a closer look

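Each of the 23 genes described in full and the mean level of the list were examined in the 3 groups, 72 groups of 6 samples in all, for a sample set apart from the others by Dixon's criterion, and chance alone marks about 1 in 20 groups. In 3 of the 72 a sample stood apart. For ccne2, akr1a1a-/- replicate 1 was the lowest of its group at 6.52 CPM, with the next sample at 8.32 CPM. For prim1, akr1a1a+/+ replicate 3 was the highest at 9.76 CPM, with the next at 7.92 CPM. For ccnb2, the same sample was the highest at 2.80 CPM, with the next at 1.88 CPM.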

How the results depend on the processing

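The number of genes of the list that were higher in akr1a1a-/- than in akr1a1a+/+ larvae was 19. It was 16 to 20 with DESeq2's size factors, its Wald test, other filters or a fit of the 2 groups alone. There 6.16% to 8.19% of all genes were higher. With the run-name code as a covariate it was 8, where 3.26% of all genes were higher. It was 6 with limma on TPM values under both pseudocounts (1 and 0.1), where 5.21% and 5.03% of all genes were higher. Without 1 sample it was 9 to 29, and none was lower in any fit. With the replicate number as a block it was 25, where 10.6% of all genes were higher. Between akr1a1a+/+ and akr1a1a-/- samples of equal number the correlation over all genes was only 0.04 to 0.13. The block thus has little basis in the genotype comparison. The block left 0 genes after ACR and 4 against ACR, where 0.108% and 8.56% of all genes were higher. In a block fit of akr1a1a+/+ samples with and without ACR alone, which are paired by number, 0 genes passed, where 0.433% of all genes were higher and 0.166% lower. Against ACR, 1 gene was higher with limma on either TPM scale or with the L2 samples only, where 3.63% to 4.71% of all genes were higher. It was 1 to 5 without 1 sample. The median log2 fold change kept its sign in every alternative, at 0.22 to 0.31 (akr1a1a-/-), 0.10 to 0.18 (ACR) and 0.11 to 0.17 (akr1a1a-/- against ACR) without 1 sample. It was 0.16 on log2(TPM + 1), 0.40 with the code and 0.26 with the block for akr1a1a-/-, while the median of all genes stayed within 0.1 of 0. After ACR, 1 member had no overlap with the untreated larvae on the TPM scale (0.276% of all genes) and 2 with counts scaled by their total alone (0.245%), and against ACR 1 did under both (1.59% and 1.95%). For akr1a1a-/- larvae the other replication factors higher, 11 in all, were 5 with the code or on the TPM scale and 17 with the block, and the other mitotic genes, 13 in all, were 5, 5 and 19. Over all 46 genes, 33 were positive against ACR on both TPM scales, against 42 in the main fit. For akr1a1a-/- against akr1a1a+/+ larvae 44 were positive on both TPM scales. There the mean TPM was lower in akr1a1a-/- larvae in cdc20 (7.05 against 7.55) and pola2 (7.92 against 8.12). Among the 23 genes described in full, directions turned only in comparisons where the gene was not called. Against ACR, rfc4 was at -0.0702 and -0.0717 on the TPM scales, mcm5 at -0.000812 and -0.000816 there and at -0.00595 with the L2 samples only, where ccnb2 was at -0.00242 and ccnb1 at -0.0657. After ACR, plk1 was at -0.0923 and -0.0966 on the TPM scales, -0.0124 with the L3 samples only and -0.00186 without ACR replicate 1, mcm2 at -0.0212 and ccnb1 at -0.0411 with the L3 samples only, and ccna2 at -5.94e-05 without akr1a1a+/+ replicate 2. The cause of these shifts was not tested. Counts of the low genes limit precision, as gins3 and ccnb2 had 33 to 71 and 35 to 62 counts per sample.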

Other observations

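By name, 44 of the 45 symbols were found in RefSeq's annotation of GRCz12tu, spread over 23 chromosomes. The genes rfc5 and ccnb1 share the chromosome of akr1a1a, with 649 and 203 protein-coding genes between each and akr1a1a. Neither passed the threshold in akr1a1a-/- larvae (log2 fold changes of 0.17 and 0.34, adjusted p = 0.124 and 0.0503, edgeR). The minor mcm6 copy (ENSDARG00000033231) held 2 to 16 counts per sample.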
